A study of Mus musculus with 22 samples.

Results

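The EGF family genes examined here were 6 ligands (Areg, Ereg, Hbegf, Tgfa, Epgn and Btc), 3 receptors (Egfr, Erbb2 and Erbb3) and Errfi1, an inhibitor of the EGF receptor kinase. These 10 genes were the rows that carried those names among 52636 genes in a table of 22 RNA-seq libraries of mouse duodenal organoids, and all 10 were found. Organoids are closed epithelial structures grown in a gel from intestinal crypts. Every library came from adult wild type mouse tissue, and each organoid line was derived from 1 mouse of an outbred strain.

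Ligands of this family are made as membrane-bound precursors, and proteases of the ADAM type cut them free. The released ligand binds the EGF receptor, which pairs with another family receptor and drives the Ras-MAP kinase cascade. Erbb2 binds no ligand of its own and acts as a partner, while Erbb3 binds neuregulins and has a weak kinase. In the intestine, EGF signalling sustains the division of stem cells, and EGF is a standard component of organoid medium.

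Cold atmospheric plasma (CAP) is an ionized gas that loads culture medium with reactive oxygen and nitrogen species. It was delivered here by a helium jet at 50 W for 60 s. The 7 groups were 4 untreated libraries and 3 libraries in each of 6 treated groups. For direct CAP, the jet was aimed at the culture itself on day 1 after plating, and fresh medium was given 30 min or 24 h later. Direct CAP for 30 min or for 24 h means this time in the treated medium. In indirect CAP the organoids received medium from another treated organoid culture, and in PAM (plasma-activated medium) they received medium treated without organoids. Both kinds of medium were given for 24 h, either from day 1 or, after ageing, from day 2. The day 2 groups were thus still in the treated medium at the endpoint on day 3, whereas the day 1 groups were returned to fresh medium. The labels do not give the day on which the 30 min libraries were collected. The labels give the indirect and PAM groups a time of 30 min or 24 h, and these stand for day 1 and day 2 in the study's own column names. Every group, the untreated one included, was grown with added EGF, Noggin and R-spondin and received a ROCK inhibitor after plating. The treated groups each held organoid lines 1, 2 and 4 (passages 12, 14 and 4), and the untreated group also held line 3 (passage 4), so that treated and untreated organoids of a line came from the same mouse.

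Values are CP20M. The study describes this unit as corrected for transcript length, but the deposited values behaved as read counts scaled to 20 M per library. In indirect CAP from day 1 of line 1, for example, 75 genes had a value of 32, 0 had 33 and 68 had 34, and 33 was empty among both shorter and longer genes. A division by length would not leave the same empty value at all lengths, so lengths were divided out here. The read depth estimated from the spacing of low values was 19.4 to 28.7 M. Epithelial markers (9 of 9 on the list) had a CP20M of 10 or more in every library. The label names the cells stem cells. The summed level of 5 stem cell markers (Lgr5, Olfm4, Ascl2, Smoc2 and Axin2) was 32557 to 38876 in untreated libraries and 757 to 2747 after PAM from day 2. Genes of other tissues were low, though not all were near 0. The endothelial Tek reached 104 and the immune Cd68 reached 86 in a library. The 9 mesenchymal markers summed to 19 to 57 in untreated libraries and to at most 63 in any treated library, and Lum was at 0 in all of them. The 6 immune markers summed to 25 to 78 in untreated libraries and 70 to 114 after PAM from day 1, and the 4 endothelial ones to 12 to 33 and 51 to 111. For the 4 nerve markers the sums were 43 to 53 and 9 to 12. Their part in the results was not tested. In bulk libraries, fewer cells of a type and less RNA per cell cannot be told apart.

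Levels of different genes were compared per kb of exon sequence. In untreated organoids Erbb3 and Erbb2 were the highest. Erbb3 stood at 1748 ± 134 CP20M per kb (SD, n = 4) and Erbb2 at 853 ± 52.5. Areg (419 ± 253) and Errfi1 (322 ± 27.4) overlapped in range, as did Egfr (133 ± 12.7) and Tgfa (132 ± 13.7). Btc (76.9 ± 23.9) and Hbegf (40.5 ± 9.46) followed. Ereg (1.82 ± 2.46) and Epgn (0.692 ± 0.696) were close to 0. With the length of the longest transcript in place of all exons, Tgfa (190) stood above Egfr (147).

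The 3 exposures of 24 h that began on day 1 (PAM, indirect CAP and direct CAP) were first pooled, and the ligands Areg, Btc and Hbegf rose in these 9 libraries against the 4 untreated ones. They were 3 of the 8 members with a CP20M of 10 or more in every untreated library, and 0 of the 8 fell. Epgn was also called, so that the count over all 10 genes was 4, but Epgn and Ereg passed the filter on low values only through treated libraries. Over all 18490 genes tested, 4.27% were called higher and 2.07% lower by the same rule (limma on log2(CP20M + 1), with a log2 fold change of 1 or more and a Benjamini-Hochberg adjusted p below 0.01). The median log2 fold change was 0.82 over the 8 members and -0.05 over all genes. Tgfa and Errfi1 had adjusted p-values under 0.01 but fold changes under the threshold, and the treated and untreated libraries did not overlap for 5 members (7.16% of all genes, higher). The replicates of a single group were different organoid lines, but the 9 pooled libraries held lines 1, 2 and 4 once for each of the 3 exposures. The pooled fit took them as independent, so its p-values do not measure the spread between lines alone. Ereg and the 3 receptors did not pass. The count over all 10 was 3 to 4 with each library left out in turn, and 3 without all libraries of line 4.

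Areg encodes amphiregulin, a ligand known for its induction during repair of the intestinal epithelium. Its CP20M was 198, 328, 882 and 628 in untreated lines 1, 2, 3 and 4. In lines 1, 2 and 4 it was 617, 1067 and 2586 after direct CAP for 30 min and 3308, 3671 and 6369 after direct CAP for 24 h. It reached 3005, 3562 and 4455 with indirect CAP from day 1 and 4362, 5371 and 6387 with PAM from day 1. The highest values came from the day 2 groups, with 4639, 9171 and 11214 for indirect CAP and 5933, 10843 and 10168 for PAM. All 15 libraries exposed for 24 h lay above the highest untreated library. Taken group by group, 11.6% to 22.7% of all genes tested lay higher without overlap. Line 1 had the lowest Areg of the 3 lines in 6 of 6 treated groups. Within a line, the ratio of a library exposed for 24 h to its untreated library ran from 15.2 to 30.0 in line 1, from 10.9 to 33.1 in line 2 and from 7.09 to 17.9 in line 4. The ratios of lines 1 and 2 rest on the labels of their untreated libraries. Over all genes, deviations from the group means in treated libraries of line 2 correlated at a median of 0.541 with untreated line 1 and 0.132 with their own, and those of line 1 at 0.353 with untreated line 2 and 0.0751 with their own. Whether these 2 untreated labels were exchanged was not tested. For the 24 h exposures from day 1 the mean rose from 509 ± 307 to 4499 ± 1278 (SD), a log2 fold change of 3.32 (SE 0.32, limma adjusted p = 2.05e-05). By fold change Areg ranked 21 of 18490 genes.

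**Figure D1:**
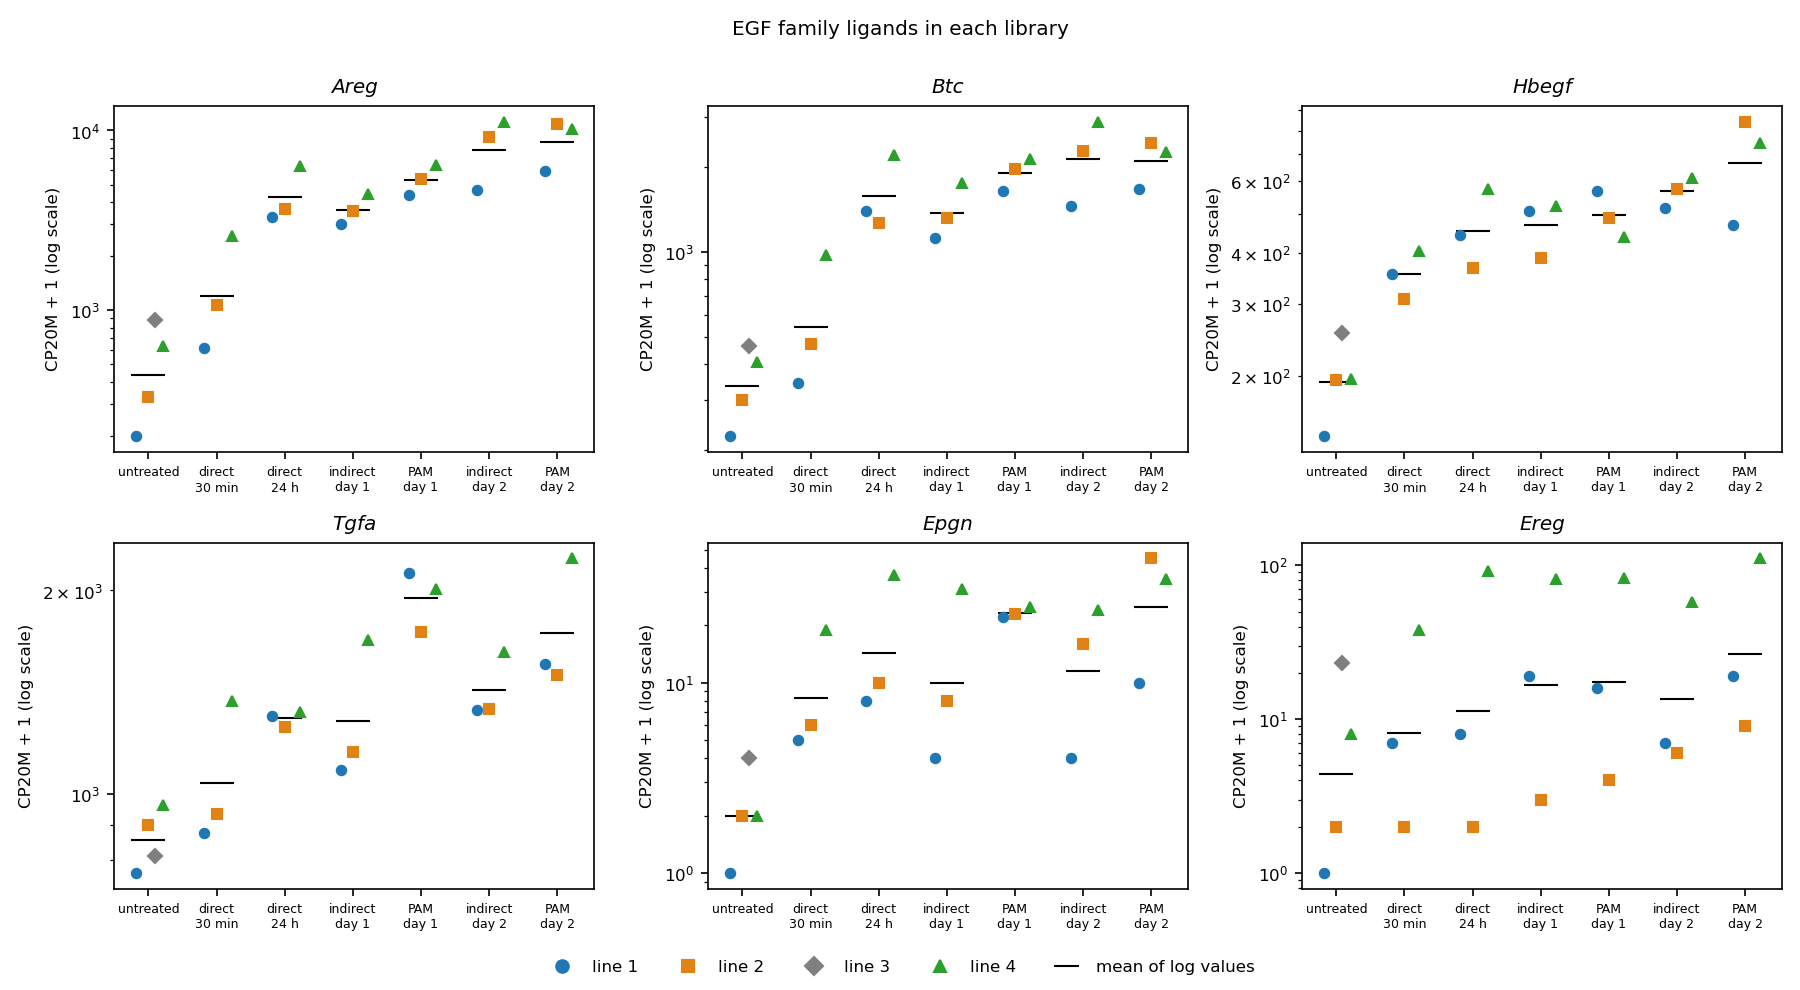
CP20M + 1 (log scale) of the 6 ligands in each of the 22 libraries, by group; symbols mark the organoid line and the bar the mean of the log values. With a 24 h exposure, Areg, Btc and Hbegf lie above every untreated library, as do 11.6% to 22.7% of all genes tested, by group. Ereg separates by line, with line 4 the highest in 6 of 6 treated groups.

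Btc encodes betacellulin, a ligand of Egfr that also activates Erbb4. It measured 222, 299, 463 and 406 in untreated lines 1 to 4. It was 342, 473 and 971 after direct CAP for 30 min, and 1400, 1268 and 2205 after direct CAP for 24 h. PAM from day 1 gave 1647, 1968 and 2140. Indirect CAP from that day gave 1117, 1322 and 1754, and the groups overlapped. The 15 libraries exposed for 24 h again lay above every untreated library, where 11.6% to 22.7% of all genes tested lay higher without overlap, by group. For the day 1 exposures the mean was 1647 ± 397 against 347.5 ± 107.8, a log2 fold change of 2.26 (SE 0.21, limma adjusted p = 1.62e-05). From day 2 the values were 1458, 2270 and 2894 with indirect CAP and 1670, 2431 and 2256 with PAM.

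Hbegf encodes the heparin-binding EGF-like growth factor. Its untreated values were 141, 194, 253 and 195. In the group given fresh medium 30 min after direct CAP the values were 355, 308 and 404. The 2 groups did not overlap, as for 12.4% of all genes tested on the higher side. The 9 libraries exposed for 24 h from day 1 ran from 366 to 574, with 443, 366 and 574 for direct CAP, 566, 488 and 437 for PAM and 508, 387 and 522 for indirect CAP. The log2 fold change over these 9 libraries was 1.29 (SE 0.15, limma adjusted p = 9.06e-05). The day 2 exposures gave 516, 574 and 612 with indirect CAP and 469, 841 and 744 with PAM.

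Epgn encodes epigen, a ligand of low affinity. It was at 0, 1, 3 and 1 in the untreated libraries, so it passed the filter on low values only through the treated ones. After PAM from day 1 it was 21, 22 and 24. It was 7, 9 and 36 with direct CAP for 24 h and 3, 7 and 30 with indirect CAP from day 1, and 8 of these 9 libraries were above every untreated one. Its call in the pooled exposures therefore supports nothing further, and it was lost without untreated line 1 and with quantile normalization.

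Ereg encodes epiregulin, which lies beside Areg and is often regulated with it. Its level followed the organoid line. Untreated lines 1 to 4 had 0, 1, 22 and 7. Line 4 had 37 to 110 in its 6 treated libraries, line 1 had 6 to 18 and line 2 had 1 to 8. Line 2 was the lowest of the 3 lines in 6 of 6 treated groups. The log2 fold change for the 24 h exposures from day 1 was 1.77 (SE 1.12, limma adjusted p = 0.241), and 3 of 9 libraries were above every untreated one. When the line was taken as a replicate block it was 2.57 (limma adjusted p = 0.00354) and passed the threshold, as did 5.27% of all genes on the higher side under the block. Like Epgn, it passed the filter on low values only through treated libraries. The untreated library of line 3 adds nothing to that blocked contrast, and the treated libraries of line 2 correlated better with the untreated library of line 1 than with their own.

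Tgfa encodes transforming growth factor alpha, which is made by intestinal epithelium. It was 764, 899, 809 and 962 in untreated organoids and 2121, 1738 and 2009 after PAM from day 1. Indirect CAP from day 1 left it at 1084, 1154 and 1690, and direct CAP for 24 h at 1303, 1255 and 1322. The 9 libraries were above every untreated one, as for 7.16% of all genes tested. The log2 fold change of 0.79 (SE 0.17, limma adjusted p = 0.00342) stayed under the fold threshold. After direct CAP for 30 min it was 874, 934 and 1374, which overlapped with untreated organoids.

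Errfi1 encodes a cytoplasmic protein that binds the EGF receptor kinase and shuts it down, and it is itself induced by receptor activity. It measured 1018, 1204, 1242 and 1144 in untreated organoids and 1479, 1360 and 1850 after direct CAP for 30 min. PAM from day 1 took it to 2370, 2213 and 2322. It was 1977, 1849 and 2323 with indirect CAP from day 1, and 1903, 1707 and 2189 with direct CAP for 24 h. The treated and untreated libraries did not overlap in any of the 6 treated groups. Over all genes tested, 11.6% to 22.7% lay higher without overlap, by group. For the 24 h exposures from day 1 the log2 fold change was 0.86 (SE 0.10, limma adjusted p = 6.30e-05).

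The receptors moved less. Egfr had a mean of 1502 ± 143 CP20M in untreated organoids (SD, n = 4) and 2089 ± 543 after 24 h from day 1 (n = 9), a log2 fold change of 0.44 (SE 0.18, limma adjusted p = 0.0803). Its 3 values after PAM from day 1 (2907, 2137 and 2724) were above every untreated library, as were those of 17.1% of all genes tested. The log2 fold change was 0.78 (limma adjusted p = 0.00190). Line 2 had the lowest Egfr of the 3 lines in 6 of 6 treated groups. After PAM from day 2, Egfr was 1379 and 1109 in lines 1 and 2 and 3047 in line 4.

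Erbb2 was 4540, 4775, 4141 and 4325 in untreated organoids, and Erbb3 was 10507, 11630, 10179 and 9739. For 24 h from day 1 their log2 fold changes were 0.02 (SE 0.09, limma adjusted p = 0.899) and -0.12 (SE 0.12, limma adjusted p = 0.452). After PAM from day 2, Erbb2 was 3687, 3055 and 3911 and Erbb3 was 7651, 7368 and 8341. Both lay below untreated organoids without overlap, as did 32.6% of all genes tested. The log2 fold changes were -0.33 (limma adjusted p = 0.0356) and -0.43 (limma adjusted p = 0.00762), under the fold threshold. With the replicate block the limma adjusted p-values were 0.0768 for Erbb2 and 0.0411 for Erbb3. Indirect CAP from day 2 gave Erbb3 values of 7977, 9198 and 7139, a log2 fold change of -0.38 (limma adjusted p = 0.0185). Quantile normalization shifted the median of all genes by 0.12 (log2) in the comparison of PAM from day 2 with untreated organoids, and Erbb2 and Erbb3 had the same direction under that scaling.

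**Figure D2:**
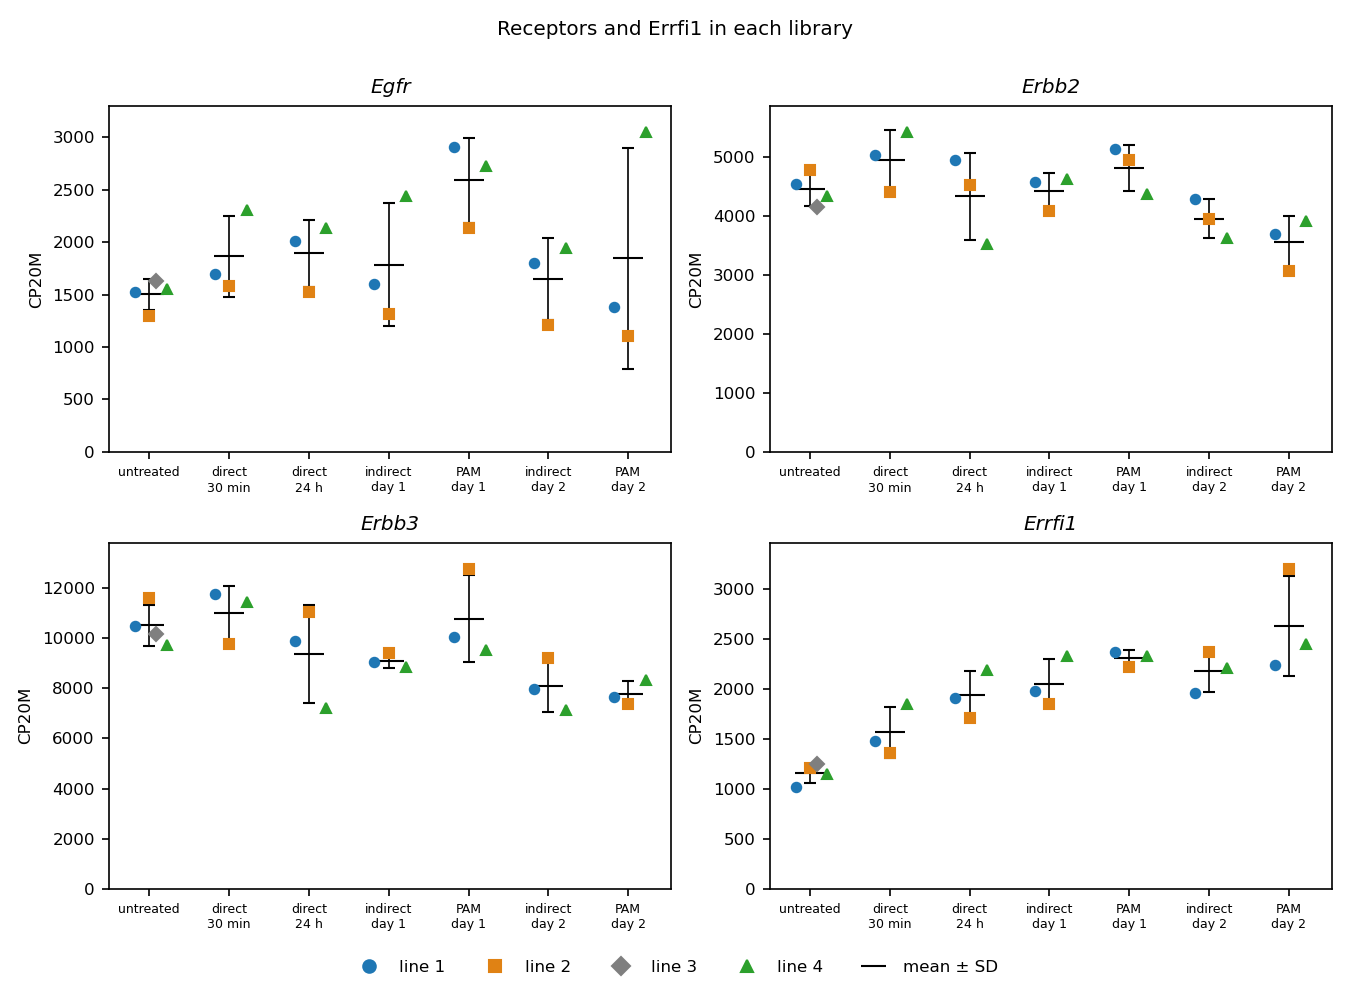
CP20M of Egfr, Erbb2, Erbb3 and Errfi1 in each library, by group, with the mean ± SD (n = 4 untreated, n = 3 in each treated group). Errfi1 of each treated group lies above the untreated libraries, as do 11.6% to 22.7% of all genes tested, by group. Erbb2 and Erbb3 after PAM from day 2 lie below the untreated libraries, as do 32.6% of all genes tested.

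The 6 treated groups were next compared with untreated organoids one at a time. After direct CAP for 30 min, 0 of the 8 genes that passed the filter were called by limma, and 3 of 8 had an unadjusted p under 0.05 (Areg, Hbegf and Errfi1). Over all 17731 genes tested, 0.00564% were called and 24.9% had an unadjusted p under 0.05. The largest log2 fold change of the family was 1.45 for Areg (SE 0.59, limma adjusted p = 0.176), and that of Hbegf was 0.88 (SE 0.20, limma adjusted p = 0.102). Of the 8, Hbegf and Errfi1 lay above untreated organoids without overlap, as did 12.4% of all genes tested. The 1 gene called was Egr1, an immediate early transcription factor of the MAP kinase cascade that was on the list of response genes. It rose from 331 ± 48.4 to 1139 ± 93.8 (SD), a log2 fold change of 1.79 (limma adjusted p = 0.00696). With any 1 of the 7 libraries left out, 0 genes were called.

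After direct CAP for 24 h, 3 of 8 genes were called higher (Areg, Btc and Hbegf) against 1.25% of all genes. At an adjusted p below 0.05 with no minimum fold, 5 were higher (7.05% of all genes), and 5 of the 8 lay above untreated organoids without overlap (11.6% of all genes). The log2 fold changes were 3.29 for Areg (SE 0.48, limma adjusted p = 0.00512), 2.23 for Btc (SE 0.28, limma adjusted p = 0.00381) and 1.24 for Hbegf (SE 0.22, limma adjusted p = 0.00983). The count fell to 0 without untreated line 2, untreated line 4 or the treated library of line 1, and to 1 without the treated library of line 2 or of line 4. It was also 0 without all libraries of line 4. The fold changes moved little in these fits, and that of Areg was 2.91 to 3.63 with 1 library left out.

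Indirect CAP from day 1 gave the same 3 calls among 9 genes tested, against 0.831% of all genes. At an adjusted p below 0.05 with no minimum fold, 5 were higher (10.2% of all genes). The libraries did not overlap for 5 higher members and for Erbb3, which was lower (16.7% and 17.7% of all genes). The log2 fold change was 3.05 for Areg (SE 0.45, limma adjusted p = 0.00679), 2.04 for Btc (SE 0.26, limma adjusted p = 0.00433) and 1.28 for Hbegf (SE 0.20, limma adjusted p = 0.00776). The count was 0 without untreated line 2, untreated line 4 or any 1 of the 3 treated libraries, and 0 without all libraries of line 4. That of Areg was 2.68 to 3.39 with 1 library left out.

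With PAM from day 1, 6 of 10 genes were called higher against 4.83% of all genes. One was Epgn, which was tested only because its treated values passed the filter, and 5 were among the 8 members expressed in every untreated library. Treated and untreated libraries did not overlap for 7 members, Epgn included, all higher (17.1% of all genes). Besides Areg (3.60), Btc (2.51) and Hbegf (1.36) the calls were Tgfa with 1.19 (SE 0.11, limma adjusted p = 0.000204) and Errfi1, at the fold threshold itself (SE 0.09, limma adjusted p = 0.000178). The log2 fold change of Errfi1 sat on the threshold, and it was 0.94 without untreated line 1, 0.98 without the treated library of line 1, 0.99 without that of line 4, and it also fell just under the threshold without untreated line 4. The count was 4 to 6 with 1 library left out, and 3 without all libraries of line 4.

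Indirect CAP from day 2 gave 3 calls among 8 genes tested, against 6.20% of all genes higher. At an adjusted p below 0.05 with no minimum fold, 5 were higher and 1, Erbb3, lower (20.3% and 23.5% of all genes). There was no overlap for 5 higher members and for Erbb3 (22.7% and 25.8% of all genes). Areg had a log2 fold change of 4.16 (SE 0.51, limma adjusted p = 0.000448), Btc of 2.66 (SE 0.29, limma adjusted p = 0.000284) and Hbegf of 1.56 (SE 0.18, limma adjusted p = 0.000393). The same count was found with each library left out in turn and without line 4.

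PAM from day 2 gave 5 calls among 9 genes tested, the same 5 as with PAM from day 1 apart from Epgn, against 6.82% of all genes higher. Of the 9, there was no overlap with untreated organoids for 5 higher members and 2 lower ones (20.7% and 32.6% of all genes). Areg had its largest log2 fold change here, 4.31 (SE 0.49, limma adjusted p = 0.000486). Btc followed with 2.64 (SE 0.26, limma adjusted p = 0.000372) and Hbegf with 1.79 (SE 0.25, limma adjusted p = 0.00109). Errfi1 had 1.18 (SE 0.14, limma adjusted p = 0.000551) and Tgfa 1.02 (SE 0.16, limma adjusted p = 0.00162). Tgfa was below the fold threshold with the replicate block (0.99) and without untreated line 1 (0.96), untreated line 3 (0.99) or the treated library of line 4 (0.84). Ereg, at 18, 8 and 110, was called with the replicate block, where its log2 fold change was 3.40 (limma adjusted p = 0.00567, against 6.43% of all genes higher under the block), but not without it (2.61, limma adjusted p = 0.106). Epgn, at 9, 44 and 34, did not pass the filter on low values in this fit.

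**Figure D3:**
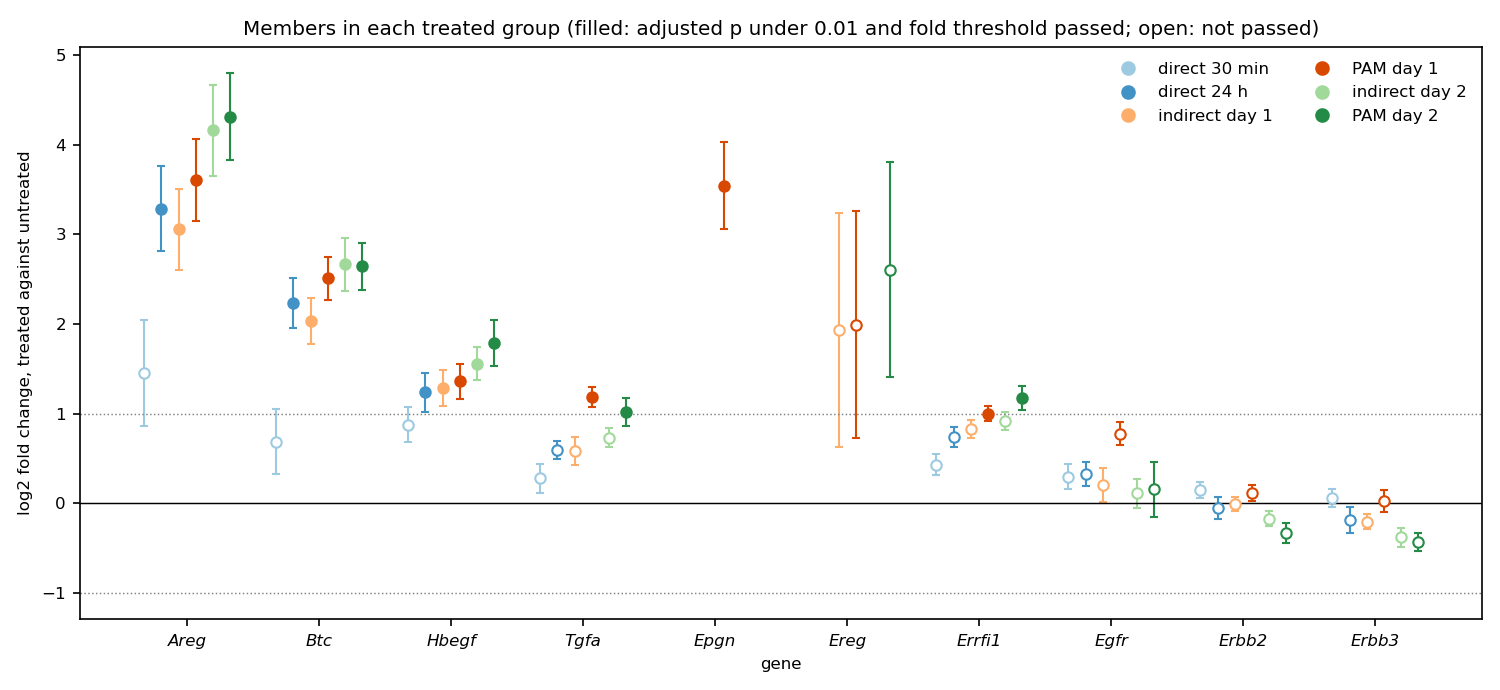
Log2 fold change of each member against untreated organoids in the 6 treated groups (points, with SE as bars; n = 3 treated and 4 untreated); filled points passed an adjusted p of 0.01 and a log2 fold change of 1, marked by dotted lines, and members that failed the filter on low values have no point. Areg, Btc and Hbegf are filled in the 5 groups exposed for 24 h, and no receptor is filled in any group; Epgn is filled with PAM from day 1, where only its treated values passed the filter.

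The ligands were also summed per length. The 6 ligands together made 671 ± 291 CP20M per kb in untreated organoids (SD, n = 4) and 1549 ± 981 after direct CAP for 30 min (n = 3). PAM from day 1 brought the sum to 5272 ± 875, direct CAP for 24 h to 4334 ± 1530 and indirect CAP from day 1 to 3648 ± 744. With the day 2 start it was 7704 ± 2968 with indirect CAP and 8301 ± 2353 with PAM. The ligand sum of every library exposed for 24 h was above the untreated range of 359 to 1012. Areg made up 58.6% ± 11.9 of the sum in untreated organoids and 88.8% after PAM from day 2, whereas the share of Tgfa went from 22.6% ± 9.02 to 3.42% ± 0.991. The 3 receptors together made 2733 ± 169 CP20M per kb in untreated organoids and 2139 ± 251 after PAM from day 2. Thus transcripts of the receptors exceeded those of the ligands in the untreated group, and the order was the opposite in the 5 groups exposed for 24 h. This order of the sums rests on Erbb2 and Erbb3, since Egfr made only 4.88% of the receptor sum in untreated organoids. Egfr alone, at 133 CP20M per kb, was already below the ligand sum of 671 there.

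**Figure D4:**
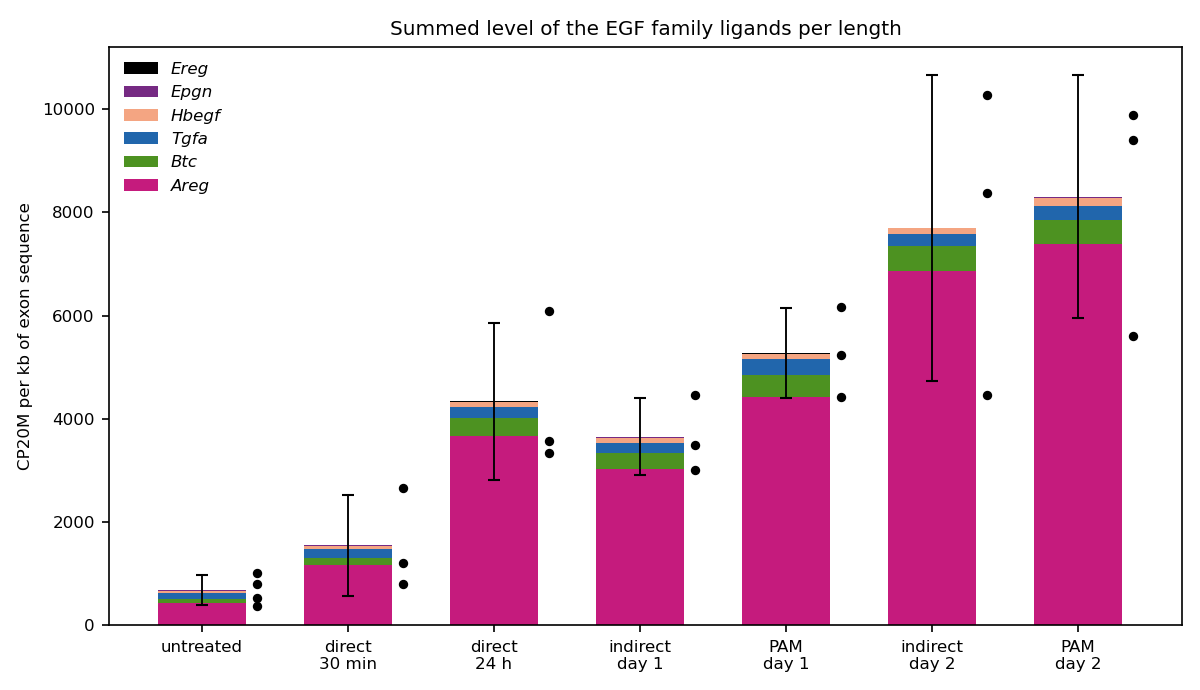
Mean CP20M per kb of exon sequence of the 6 ligands, stacked by group, with the SD of the sum as a bar and each library's sum as a dot. Areg is the largest part of every column, and the sum goes from 671 in untreated organoids to 8301 after PAM from day 2.

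Of the 6 ligands, 4 lie next to each other. Epgn, Ereg, Areg and Btc fill a stretch of 375531 bases on chromosome 5 (GRCm38, chr5:91027464-91402994). Epgn, Ereg and Areg are on the plus strand and Btc is on the minus strand. The annotation places 3 other genes in the stretch. One of them, the long noncoding RNA Gm19619 between Areg and Btc, went from a mean of 2.5 in untreated organoids to 99.3 after PAM from day 2, with a highest value of 169. It passed the filter on low values only through treated libraries. Gm19610 is antisense to the start of Ereg and had at most 15 in any library, and reads of the overlap cannot be assigned without strand. The nearest gene before Epgn, Mthfd2l, had a log2 fold change of -0.29 (limma adjusted p = 0.0907). The nearest after Btc, Parm1, had 0.95 (limma adjusted p = 0.00127), under the fold threshold. Hbegf is on chromosome 18, Tgfa on chromosome 6, Egfr and Erbb2 on chromosome 11, Erbb3 on chromosome 10 and Errfi1 on chromosome 4.

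**Figure D5:**
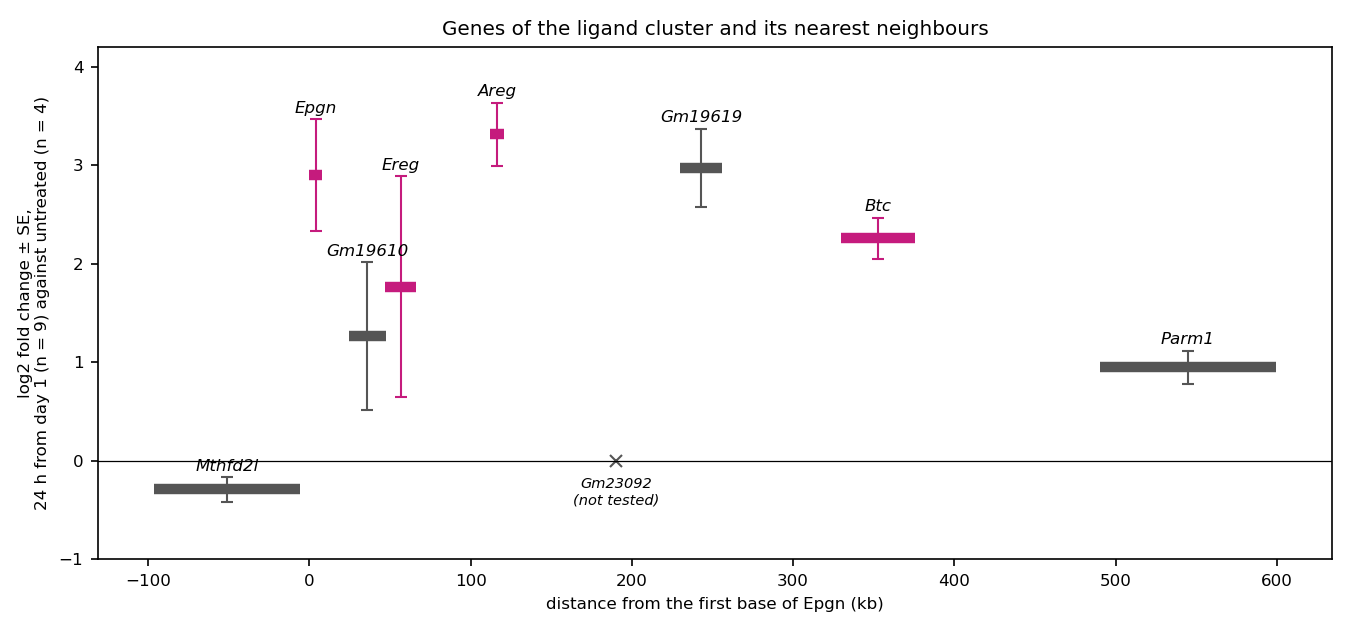
Log2 fold change (SE as bars) after 24 h from day 1 (n = 9) against untreated (n = 4), drawn at each gene's extent in kb from the first base of Epgn; ligands are in colour, other genes in grey, and the cross marks a gene that was not tested. Epgn, Areg, Gm19619 and Btc lie between 2.26 and 3.32, where Epgn and Gm19619 were tested only through their treated values. Ereg and Gm19610, inside the same stretch and also tested only through treated values, lie at 1.77 and 1.27 and were not called. The outer neighbours Mthfd2l and Parm1 lie at -0.29 and 0.95.

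Upstream sequences were read for the genes that rose in this stretch and for Errfi1, to show what lies just before their starts. The RefSeq promoter table (GRCm38.p6) held 7 of the 10 genes, with 2 starts for Errfi1. Ereg, Hbegf and Erbb3 had no entry and were not searched. 6 short motifs were searched on both strands of each window, from 250 bases before to 50 bases after the start: AP-1 TGANTCA, CRE TGACGTCA, NRF2 TGACNNNGC, TEAD GGAATG, EGR GCGNGGGCG and the TATA motif TATAAA. The AP-1 and NRF2 letters can overlap. A cAMP response element (CRE), the binding site of the CREB and ATF factors, was found 61 bases before the start of Areg and 51 bases before the second start of Errfi1. Of 32851 promoters in the table, 1.79% held it. TATAAA lay 31 bases before the start of Areg, 28 before the second start of Errfi1 and 86 before that of Epgn, and 13.6% of the promoters held it. GGAATG was found in the window of the other Errfi1 start and in that of Erbb2, as in 14.7% of promoters. AP-1 (7.81% of promoters), NRF2 (12.4%) and EGR (5.55%) matched in none of the windows searched, and Btc, Tgfa and Egfr held none of the motifs. The 250 bases before the start are given 5′ to 3′ on the gene's strand, with the matched letters in capitals.
Areg (chr5:91139349-91139598, plus strand): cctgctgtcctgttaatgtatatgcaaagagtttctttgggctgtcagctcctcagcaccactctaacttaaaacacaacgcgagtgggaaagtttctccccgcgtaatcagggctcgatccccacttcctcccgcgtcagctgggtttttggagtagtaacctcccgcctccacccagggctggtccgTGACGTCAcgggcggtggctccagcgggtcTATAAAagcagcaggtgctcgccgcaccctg
Errfi1, second start (chr4:150854820-150855069, plus strand): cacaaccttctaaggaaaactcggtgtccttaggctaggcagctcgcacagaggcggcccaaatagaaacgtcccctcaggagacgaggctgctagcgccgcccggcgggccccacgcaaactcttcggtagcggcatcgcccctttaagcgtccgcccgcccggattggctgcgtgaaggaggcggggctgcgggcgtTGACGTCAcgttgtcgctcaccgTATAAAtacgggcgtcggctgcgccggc
Epgn (chr5:91027267-91027516, plus strand): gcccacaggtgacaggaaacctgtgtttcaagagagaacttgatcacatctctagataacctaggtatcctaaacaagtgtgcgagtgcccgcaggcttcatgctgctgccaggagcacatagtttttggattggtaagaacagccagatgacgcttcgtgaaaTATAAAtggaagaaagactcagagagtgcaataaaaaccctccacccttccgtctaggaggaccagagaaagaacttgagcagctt
Btc (chr5:91402995-91403244, minus strand): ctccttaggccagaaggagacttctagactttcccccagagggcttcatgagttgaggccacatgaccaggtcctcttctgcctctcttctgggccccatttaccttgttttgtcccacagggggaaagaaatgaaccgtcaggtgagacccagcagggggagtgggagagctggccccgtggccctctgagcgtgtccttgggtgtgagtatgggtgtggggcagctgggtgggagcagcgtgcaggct
In Areg and at the second start of Errfi1 the CRE stands a short way before the TATA letters. The other Errfi1 start holds neither, and Btc, whose level ran closest to that of Areg, shows none of the letters searched.

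Patterns over the 22 libraries were compared by Pearson's r of log2(CP20M + 1) among 19370 genes, as a description, since the libraries share lines and groups. Areg and Btc were each other's most similar gene (r = 0.989), followed for both by Gsdmd, which encodes the pore-forming gasdermin D (0.973 and 0.977). Tob1 came next for Areg (0.972) and Ctsl for Btc (0.972). Hbegf was most similar to Errfi1 (0.958), then to A930001C03Rik (0.955) and Tnni2 (0.953). Errfi1 itself stood nearest to Slc7a11, the cystine transporter (0.966), Plk3 (0.963) and Hbegf. Tgfa was nearest to Gm43917 (0.975), Golga2 (0.974) and Ezr (0.970), and Epgn to Gm44876 (0.942), Mocos (0.941) and Ccdc68 (0.938).

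Ereg had other neighbours than Areg, namely Ecel1 (0.952), Camk1 (0.926) and Gm44613 (0.915), and its r with Areg was 0.563. Egfr was nearest to R3hdm4 (0.913), Gm26602 (0.908) and Arhgef40 (0.892). Erbb2 was nearest to Gm44123 (0.881), Peak1 (0.870) and Gm26642 (0.853), and Erbb3 to Magi3 (0.858), Clstn1 (0.857) and Slc38a10 (0.840). Between them, Erbb2 and Erbb3 had an r of 0.827.

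The rest of the pathway was described from a fixed list. Of the other 4 family ligands of the neuregulin type, Nrg4 alone passed the filter (399 ± 27.2 in untreated organoids, SD, n = 4; 327 ± 46.7 after 24 h from day 1, n = 9), and Nrg1, Nrg2, Nrg3 and the receptor Erbb4 averaged under 3. Egf itself averaged 16.8 in untreated organoids and 11.3 after 24 h from day 1, so 0 of the 2 genes of this list that were tested were called (log2 fold changes -0.54 and -0.30).

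Among 6 genes of ligand release, 1 was called higher in the 24 h exposures from day 1 (background 4.27%). This was Rhbdl2, an intramembrane protease of the rhomboid family, which went from a mean of 158 to one of 343 with a log2 fold change of 1.07 (SE 0.19, limma adjusted p = 0.00127). The sheddases Adam10 (3985 ± 147 to 3953 ± 420) and Adam17 (1405 ± 78.3 to 1401 ± 140) had log2 fold changes of -0.02 and -0.01. At a limma adjusted p under 0.05, 3 of the 6 were higher and 0 lower (14.8% and 18.7% of all genes). Rhbdf1 averaged 874.5 in untreated organoids and 1189 to 1251 in the groups of these exposures. Rhbdf2 averaged 970 and 1287 to 1343, and Timp3 41.25 and 37.7 to 56.3. Of 8 genes that restrain the receptors, 0 were called in either direction by limma, and 5 had an adjusted p under 0.05 (2 higher and 3 lower, against 14.8% and 18.7% of all genes). Lrig1, a transmembrane inhibitor of the family's receptors and a marker of stem cells that was picked after its values were seen, had a log2 fold change of -0.99 (limma adjusted p = 0.00205). It was called lower with PAM from day 2, at 1216 ± 452 against 5630 ± 515 (-2.27, limma adjusted p = 0.000347).

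Of 16 adaptors and members of the Ras-MAP kinase cascade, 0 were called by limma (background 4.27% higher and 2.07% lower) and 2 had an adjusted p under 0.05 (14.8% of all genes higher), so the list stood near the background. These were Map2k2 and Mapk3, picked after their values were seen, with log2 fold changes of 0.23 and 0.29 (limma adjusted p = 0.0110 and 0.0331). The list's median log2 fold change was -0.01.

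Among 14 feedback and response genes, 5 were called higher and 0 lower (4.27% and 2.07% of all genes). Fosl1, an AP-1 subunit, went from 39 ± 13.4 to 200 ± 57.9 with a log2 fold change of 2.34 (limma adjusted p = 5.01e-05). Ier3 rose from 197.5 ± 74.8 to 621 ± 242 (1.62, limma adjusted p = 0.00250). The MAP kinase phosphatases Dusp6 (879 ± 176 to 2260 ± 507, log2 fold change 1.35) and Dusp5 (745.5 ± 117 to 1628 ± 399, log2 fold change 1.10) had limma adjusted p-values of 0.000208 and 0.000680. Egr1 rose from 331 ± 48.4 to 816 ± 302 (1.23, limma adjusted p = 0.00184). Some genes of the list, picked after their values were seen, went the other way. Etv5 (-0.51) and Spred1 (-0.40) were lower at an adjusted p under 0.05, and 2 genes, Etv4 and Etv5, were called lower with PAM from day 2 (-1.04 and -1.58, limma adjusted p = 0.00140 and 0.00791, against 10.5% of all genes lower), where 6 others were called higher (6.82% of all genes). Etv4 and Etv5 are transcription factors that report on fibroblast growth factor and EGF signalling. The stem cell markers moved beside these results, with 4 of 5 called lower in the 24 h exposures from day 1 and 5 of 5 with PAM from day 1 or day 2 (2.07%, 5.40% and 10.5% of all genes lower). Paneth cells are a source of EGF in the crypt. Of 5 Paneth cell markers, 2 were called lower in the 24 h exposures from day 1 (2.07% of all genes). With PAM from day 1 it was 3 of 5 (5.40%), and their sum was 3742 to 15923 against 21624 to 30627 in untreated libraries. From day 2, 0 of 5 were called with indirect CAP, and 0 of 5 with PAM (10.5% of all genes lower). The sums there were 13516 to 22985 and 3745 to 16885. Mmp7 of this list averaged 445.5 in untreated libraries, 630 with indirect CAP from day 2 and 243 with PAM from day 1. The part of either cell type in the ligand results was not tested.

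Finally, treated groups were compared with each other. Between direct CAP for 24 h and for 30 min, 0 of 8 genes were called by limma, as were 0% of 17668 genes, and 2 of 8 had an unadjusted p under 0.05 (21.4% of all genes). Areg was 4449 ± 1672 after 24 h and 1423 ± 1032 after 30 min (SD, n = 3 each), and 3 of 3 values after 24 h were above the highest after 30 min. Areg and Btc were the 2 members without overlap (7.33% of all genes, higher). The log2 fold change was 1.83 (SE 0.49, limma adjusted p = 0.205), and with the replicate block the limma adjusted p was 0.00240, which passed the threshold, as did 0.549% of all genes on the higher side. Btc behaved likewise (1624 ± 507 against 595 ± 332, log2 fold change 1.54, SE 0.38), with limma adjusted p-values of 0.205 without and 0.00276 with the block. Hbegf differed by 0.36 (SE 0.20, limma adjusted p = 0.300).

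Indirect CAP and PAM from day 1 were each set against direct CAP for 24 h, and not against each other. Between indirect and direct CAP the 9 tested genes had log2 fold changes of -0.23 to 0.56, with a lowest limma adjusted p of 0.756 and 0 genes at an unadjusted p under 0.05 (6.95% of all genes), and 0 were called. Between PAM and direct CAP 0 of 10 were called by limma and 2 had an unadjusted p under 0.05 (10.4% of all genes). Tgfa was higher with PAM in 3 of 3 libraries, at 1956 ± 197 against 1293 ± 34.5 (log2 fold change 0.59, SE 0.11, limma adjusted p = 0.181). With the replicate block the limma adjusted p of Tgfa was 0.0252, still above the threshold. Errfi1 was also above in 3 of 3 libraries (0.26, SE 0.12, limma adjusted p = 0.503), and Egfr in 2 of 3 (0.45, SE 0.17, limma adjusted p = 0.457). Tgfa and Errfi1 were the 2 members without overlap (5.68% of all genes, higher). In both comparisons 0% of all genes were called, and a p that misses the threshold does not show that the treatments act alike.

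Between the day 2 and day 1 exposures to indirect CAP, 0 of 10 genes were called by limma, 0.0111% of all 17987 genes were, and 1 of 10 had an unadjusted p under 0.05 (21.7% of all genes). Areg was 8341 ± 3365 from day 2 and 3674 ± 731 from day 1, with 3 of 3 values above (12.1% of all genes), and a log2 fold change of 1.11 (SE 0.32, limma adjusted p = 0.112). With the replicate block the limma adjusted p was 0.000322 and the gene was called, as were 1.15% of all genes on the higher side. Btc had 0.63 (SE 0.27, limma adjusted p = 0.236). With the block its limma adjusted p was 0.00110, and its fold change stayed under the threshold. For PAM, 0 of 10 genes were called between day 2 and day 1, as were 0% of all genes, and 3 of 10 had an unadjusted p under 0.05 (26.8% of all genes). Areg differed by 0.71 (SE 0.26, limma adjusted p = 0.142), and Erbb2 (-0.44, SE 0.13, limma adjusted p = 0.0969) and Erbb3 (-0.46, SE 0.14, limma adjusted p = 0.104) were lower from day 2 in 3 of 3 libraries, as were 16.9% of all genes. With the block the limma adjusted p-values of Areg, Erbb2 and Erbb3 were 0.0423, 0.0870 and 0.102.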

How the data were processed

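RNA of 22 libraries (2 x 100 bases, paired-end) was measured by the authors. Per the labels and the study's methods, reads were trimmed with Trimmomatic 0.36, aligned with STAR 2.5.3a to GRCm38 and counted per Ensembl gene with HTSeq 0.9.1; whether strand was used in counting is not given in the sources used here. The authors deposited CP20M values, handled here as a score: as the values show, each library's read counts were brought to a sum of 20 M and rounded up. The study's captions call the unit per kilobase, but the low values fall on steps shared by genes of all lengths, which division by length would not leave. Unscaled counts were not analysed here, so depth had to be estimated, and at low values counting error is large. The authors themselves tested counts with edgeR.

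For 12 comparisons, limma 3.58.1 (moderated test with a trend, R 4.3.3) was run on log2(value + 1), keeping genes that reached 10 in 3 or more libraries of the fit. A call needed a log2 fold change of 1 or more and an adjusted p (Benjamini-Hochberg, over all genes tested) below 0.01. Levels per length used the exon sequence of GENCODE vM21 (GRCm38), which held 99.7% of the identifiers. The method was tested on simulated data. The 10 genes were all reported; the pathway genes given by rule were those past the threshold in the pooled 24 h exposures from day 1, others with values were added after they were seen, and similar genes were the 3 with the highest r. The members and lists were chosen with earlier results of these data known.

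Samples of a line came from the same mouse, so the line could pair them. Deviations from the group means correlated at 0.219 to 0.806 within a line between treated groups (45 of 45 pairs over 0.1). Between untreated and treated libraries of a line they were -0.05 to 0.65, and untreated lines 1 and 2 fitted their own line less well than each other's. The main design had no block, and the line as a replicate block was the alternative, under which line 3 adds nothing to a contrast. No 2 libraries of a group were copies of each other.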

Additional observations from a re-analysis of the deposited data

Results flagged for a closer look

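The following 3 differences between treated groups stood out because the test of the difference itself passed the threshold once the organoid line was used as a replicate block. Areg was higher after direct CAP for 24 h than for 30 min by 1.83 on the log2 scale (limma adjusted p = 0.00240 with the block and 0.205 without it; higher in 3 of 3 lines). Btc was higher in the same comparison by 1.54 (limma adjusted p = 0.00276 with the block and 0.205 without it; higher in 3 of 3 lines). Areg was higher with indirect CAP from day 2 than from day 1 by 1.11 (limma adjusted p = 0.000322 with the block and 0.112 without it; higher in 3 of 3 lines). Under the block, 0.549% of all genes were called higher in the first of these comparisons and 1.15% in the second. No untreated library stood far enough from the other 3 in any of the 10 genes to be singled out.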

How the results depend on the processing

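Each comparison was refitted with quantile normalization, a pseudocount of 10, no filter on low values, all 7 groups in 1 fit, the replicate block, a threshold of adjusted p under 0.05 without a minimum fold change, and each library left out. Leaving out the libraries of line 4 was chosen after seeing the data. Of the counts of members called, 151 stayed within 1.5 times the main count and 18 did not. The 151 include comparisons with a main count of 0. At most 0.0111% of all genes were called in those, so an unchanged 0 says little about stability. Without a minimum fold change the count was 5 instead of 3 for direct CAP for 24 h, 5 instead of 3 for indirect CAP from day 1, and 6 instead of 3 for indirect CAP from day 2. With the replicate block (the pairing by line), 2 members were called between direct CAP for 24 h and 30 min and 1 between indirect CAP from day 2 and day 1, against 0 in both; under the block 0.549% and 1.15% of all genes were called higher. Besides these and the calls of Ereg (gained in the pooled 24 h exposures and with PAM from day 2) and Tgfa (lost with PAM from day 2, 0.99), the block changed no call of a member. Without line 4 the count was 0 for direct CAP for 24 h, 0 for indirect CAP from day 1 and 3 for PAM from day 1. With 1 library left out it ranged from 0 to 2 for direct CAP for 24 h and from 0 to 3 for indirect CAP from day 1. For both, adjusted p-values crossed the threshold while fold changes stayed, and the cause was not tested.

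Sign changes fell on receptors with main log2 fold changes of -0.05 to 0.20. The widest range was that of Egfr with PAM from day 2, where the lines differed. Line 4 had 3047 there, and lines 1 and 2 had 1379 and 1109 (untreated 1297 to 1629). In the pooled 24 h exposures Erbb2 was -0.015 with the block and -0.015 to 0.062 with 1 library left out. Without line 4, Erbb3 was -0.0037 after direct CAP for 30 min, Erbb2 was 0.078 after direct CAP for 24 h, and Egfr was -0.026 with indirect CAP from day 1, -0.0034 with indirect CAP from day 2 and -0.26 with PAM from day 2. With PAM from day 1, Erbb3 was -0.028 under quantile normalization and -0.10 to 0.11 with 1 library left out. Leaving out 1 library gave Erbb2 -0.15 to 0.090 after direct CAP for 24 h and -0.040 to 0.050 with indirect CAP from day 1. It gave Egfr -0.046 to 0.40 with indirect CAP from day 1, -0.023 to 0.32 with indirect CAP from day 2 and -0.27 to 0.45 with PAM from day 2. Hbegf after direct CAP for 24 h was not called without the filter (limma adjusted p = 0.0103), and Errfi1 with PAM from day 1 was not called with a pseudocount of 10 (0.996). Counting error is large for Epgn and Ereg, with 0 to 3 and 0 to 22 in untreated organoids.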
